A study of Mus musculus with 10 samples.

Results

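The mitochondrial ribosomal proteins, encoded in the nucleus under the symbols Mrpl (large subunit) and Mrps (small subunit), were represented by 77 of the 19938 genes with a usable probe set, 48 Mrpl and 29 Mrps. A gene was a member when a probe set of the platform annotation had its symbol alone, and the probe set with the highest mean signal stood for it. Gene expression was measured on 10 one-colour microarrays of RNA from 5 mouse acute myeloid leukaemia lines driven by the MLL-AF9 fusion, described in the series design as independent primary leukaemias. Every line, the controls included, carried Cre-ER, a Cre recombinase that tamoxifen activates. Lines 10949, 10950 and 10986 held a floxed allele of the X-linked transcription factor gene Zfx (Zfx fl/y, called fl lines), and lines 10977 and 10980 held the wild-type allele (wt/y, called wt lines). Cells of each line were grown for 72 h with 10 nM 4-hydroxytamoxifen (4-OHT) or with ethanol vehicle, and c-Kit+ cells were then sorted. The groups were fl 4-OHT and fl vehicle with 3 arrays each, and wt 4-OHT and wt vehicle with 2 arrays each. Strain, age and sex of the mice are not given in the labels, apart from what wt/y and fl/y state. The question, from the series title and design, was how loss of Zfx alters expression in these cells.

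Mitochondrial ribosomes translate the few messages of the mitochondrial genome, all of which encode subunits of the respiratory chain and the ATP synthase. Their ribosomal RNAs are made in mitochondria, while every protein is made in the cytosol and imported, so the ribosome depends on both genomes. Part of the proteins descend from bacterial ribosomal proteins and part have no bacterial counterpart. Mitochondrial translation is known as a dependency of acute myeloid leukaemia cells.

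By structure, 31 members are large subunit proteins with a bacterial counterpart, among them Mrps18a, which sits in the large subunit despite its symbol. Another 19 large subunit members are particular to mitochondria, among them Mrps30. As listed here, the small subunit gave 16 members with a bacterial counterpart and 10 particular to mitochondria. Mrps28 was listed among these 10, although some namings count it with the bacterial counterparts. Group values below follow these lists. The remaining member by symbol, Mrps36, is a component of the ketoglutarate dehydrogenase complex rather than of the ribosome. One further probe set carries Mrpl53 together with another gene and was left out. All 77 members passed the filter on level, a mean log2 signal of at least 6.23, which kept 15662 genes.

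Promoter windows from RefSeq (assembly GRCm38.p6) run from 250 bases before to 50 after the gene start. They are shown for 5 of the 6 members whose fl 4-OHT and fl vehicle levels did not overlap, the other, Mrps34, having no window. Of these 6, 5 were lower with 4-OHT (6.49% of members, against 7.27% of tested genes) and 1 was higher (1.30%, against 4.55%). Capitals mark matches to a GABP and ETS motif, CCGGAAG, or to a YY1 motif, AAGATGG, on either strand. The windows lie at chr2:130563507-130563806 (+) for Mrps26, chr14:57825989-57826288 (+) for Mrpl57, chr7:28741772-28742071 (-) for Mrps12, chr11:120484387-120484686 (+) for Mrpl12 and chr7:78783040-78783339 (-) for Mrpl46, and each is read along its gene.
Mrps26: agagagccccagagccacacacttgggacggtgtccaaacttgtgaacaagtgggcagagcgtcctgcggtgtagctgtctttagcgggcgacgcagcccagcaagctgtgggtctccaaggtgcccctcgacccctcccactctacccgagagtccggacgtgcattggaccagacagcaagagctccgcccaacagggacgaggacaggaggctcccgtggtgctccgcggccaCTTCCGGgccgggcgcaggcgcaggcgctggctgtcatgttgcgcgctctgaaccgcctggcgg
Mrpl57: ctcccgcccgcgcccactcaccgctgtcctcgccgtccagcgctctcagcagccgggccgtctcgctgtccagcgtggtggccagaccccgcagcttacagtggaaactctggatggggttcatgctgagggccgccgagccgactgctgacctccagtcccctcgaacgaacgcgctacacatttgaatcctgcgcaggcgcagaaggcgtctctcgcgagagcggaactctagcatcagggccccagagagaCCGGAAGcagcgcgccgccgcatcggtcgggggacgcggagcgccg
Mrps12: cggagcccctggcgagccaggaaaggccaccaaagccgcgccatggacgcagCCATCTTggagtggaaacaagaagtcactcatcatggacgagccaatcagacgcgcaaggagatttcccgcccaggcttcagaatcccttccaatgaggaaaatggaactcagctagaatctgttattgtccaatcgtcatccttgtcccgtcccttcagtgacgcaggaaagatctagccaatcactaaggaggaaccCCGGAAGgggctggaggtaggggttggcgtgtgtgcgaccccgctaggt
Mrpl12: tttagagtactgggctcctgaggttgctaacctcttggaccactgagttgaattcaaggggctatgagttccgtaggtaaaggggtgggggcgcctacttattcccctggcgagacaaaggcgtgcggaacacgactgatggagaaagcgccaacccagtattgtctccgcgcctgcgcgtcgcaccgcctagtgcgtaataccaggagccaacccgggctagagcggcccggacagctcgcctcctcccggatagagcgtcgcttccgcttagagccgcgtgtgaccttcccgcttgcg
Mrpl46: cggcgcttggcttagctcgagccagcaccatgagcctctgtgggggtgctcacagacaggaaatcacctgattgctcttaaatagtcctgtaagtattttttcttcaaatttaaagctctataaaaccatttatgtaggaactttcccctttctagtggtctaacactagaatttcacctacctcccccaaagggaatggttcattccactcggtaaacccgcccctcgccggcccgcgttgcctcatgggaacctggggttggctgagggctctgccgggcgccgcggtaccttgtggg
Counted from 1 at the gene start, with -1 the base before it, the Mrps26 window has the GABP and ETS letters on the opposite strand at -14, and the Mrpl57 and Mrps12 windows have them on the gene's strand at 5 and 2. The Mrps12 window also has the YY1 letters on the opposite strand at -198. The Mrpl12 and Mrpl46 windows have a match to none of the 4 motifs searched.

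A window was found for 68 of the 77 members, and 9 had none. The GABP and ETS letters, recognised by an activator of many nuclear genes for mitochondria, occurred in 24 member windows (35.3%), against 14.9% of the 12385 windows of tested genes and 9.12% of all 27025 windows. The YY1 letters occurred in 13 member windows (19.1%), against 6.77% of tested genes and 6.48% of all. The NRF1 letters GCGCATG, of another regulator of such genes, occurred in 8 member windows (11.8%), against 5.93% and 4.04%. The ZFX letters AGGCCT, searched on both strands as the others, occurred in 2 member windows (2.94%), those of Mrpl40 and Mrpl44, against 10.5% and 10.3%. The YY1 letters and the GABP and ETS letters can share the bases AAG, and a match describes the letters only.

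The median member lay above the median tested gene on every array, but not every member did so. Mrps12, Mrps30, Mrps26, Mrps34 and Mrpl44 had mean log2 levels of 7.29 to 7.93, while the median over tested genes was 7.99 to 8.11 by array. The mean log2 level over the arrays placed the members between percentiles 49.98 and 97.99 of all genes. Mrps21, Mrpl40 and Mrpl23 had the highest signals of the members and Mrps12, Mrps30 and Mrps26 the lowest, although a signal also depends on the probes and does not order genes by RNA amount. The median log2 level over members was 10.09, 9.71 and 9.95 on the fl 4-OHT arrays of lines 10949, 10950 and 10986, against 10.25, 9.64 and 9.11 on their vehicle arrays. In wt lines 10977 and 10980 it was 9.86 and 9.90 with 4-OHT, against 9.90 and 9.98 with vehicle. The fl vehicle arrays thus held both the highest and the lowest member median, and the other 3 groups lay between them. In bulk RNA of sorted cells, fewer cells of a type and less RNA per cell cannot be told apart.

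**Figure D1:**
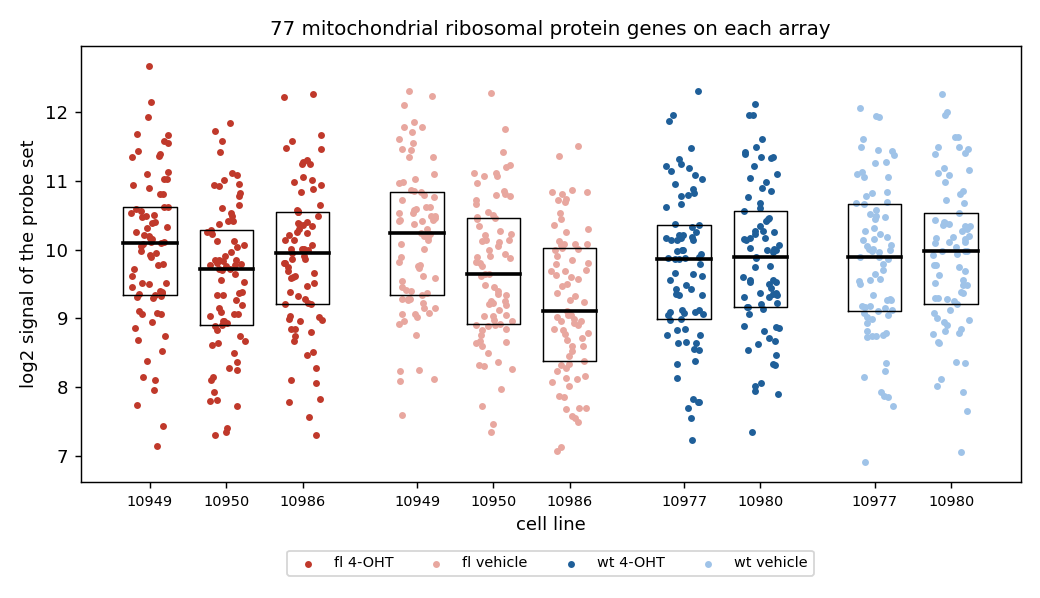
Log2 signal of each of the 77 members on each array (points), with the median (line) and interquartile range (box), for fl 4-OHT, fl vehicle, wt 4-OHT and wt vehicle arrays by cell line. The vehicle array of line 10986 has the lowest median, 9.11, and the vehicle array of line 10949 the highest, 10.25.

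The vehicle array of line 10986 stood apart over all genes, with a mean correlation of 0.961 with the other arrays, against 0.979 to 0.985 for the others, so fitted values that rest on it are also given without that line. It held the lowest level of the 10 arrays for 59 of 77 members, while it did so for 26.1% of all tested genes. The same array held the highest level for 27.1% of tested genes and for 1 member, so over all genes it was extreme both ways. The vehicle array of line 10949 held the highest level for 50 members, against 14.4% of tested genes. Of markers of the sorted cells, all 8 leukaemic progenitor markers passed the level filter, Kit among them at 8.35 to 9.94. Of monocyte and macrophage markers, 7 of 8 were measured and 5 were higher with 4-OHT in all 3 fl lines. Their summed linear signal was 8491 to 13014 in fl 4-OHT cells and 5862 to 9547 in fl vehicle cells, and 7310 to 11391 in wt 4-OHT cells and 8979 to 10127 in wt vehicle cells. Of granulocyte markers, all 8 were measured and 2 were higher in all 3 fl lines, and their summed signal was 30127 to 38079 in fl 4-OHT cells and 27846 to 37175 in fl vehicle cells, and 45397 to 51682 in wt 4-OHT cells and 45674 to 47618 in wt vehicle cells. The 5 stroma and endothelium markers had summed signals of 2124 to 2288 in fl 4-OHT cells and 1311 to 1828 in fl vehicle cells, which did not overlap. In wt cells these were 1466 to 1596 with 4-OHT and 1341 to 1755 with vehicle. The largest part of the sum came from Pecam1, at log2 9.10 to 10.69, against 6.08 to 8.61 for the other markers. Pecam1 was also the 1 marker higher in all 3 fl lines. In line 10986 the median difference of the 5 markers was -0.23, with 4 lower with 4-OHT. Of B lymphoid markers 4 of 5 were measured and 1 passed the level filter, Pax5 at a mean of 6.41, while Cd79a, Ebf1 and Ms4a1 did not. T lymphoid markers had 4 of 5 measured and 2 that passed, Cd3e at a mean of 7.03 and Cd8a at 6.73. All 6 mast cell and basophil markers passed, as did the 3 erythroid markers measured and 2 of 3 megakaryocyte markers measured. Passing the filter therefore does not show that a cell type was present. The part of these markers in the member values was not tested.

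With 4-OHT, member levels in line 10986 moved the opposite way to the other 4 lines. The median log2 difference over members, 4-OHT minus vehicle, was 0.68 in line 10986, with 67 of 77 members above 0, against 45.5% of all tested genes. In the other fl lines the median was -0.14 in line 10949 and -0.11 in line 10950, with 57 and 49 members below 0, against 52.6% and 42.5% of tested genes. In the wt lines it was -0.11 in line 10977 and -0.05 in line 10980, with 66 and 56 members below 0, against 49.2% and 50.9% of tested genes. Over all tested genes the median difference was -0.04 in line 10986 and between -0.01 and 0.04 in the other lines.

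All 4 structural groups of the ribosome had a median above 0 in line 10986. The median difference was 0.94 for small subunit members particular to mitochondria, 0.75 for large subunit members particular to mitochondria, 0.68 for large subunit members with a bacterial counterpart and 0.50 for small subunit members with one. In lines 10949 and 10950 these groups had medians of -0.12 and 0.02, -0.13 and -0.13, -0.12 and -0.09, and -0.21 and -0.14. All of these lay below 0 but that of small subunit members particular to mitochondria in line 10950, where 6 were above 0 and 4 below. The 10 members that were not higher with 4-OHT in line 10986 were Mrpl12, Mrpl38, Mrpl44, Mrpl57, Mrps6, Mrps12, Mrps16, Mrps18a, Mrps26 and Mrps34. Members lower in each of the 4 lines other than 10986 numbered 26 (33.8%, against 9.36% of tested genes), and none was higher in all 4 (10.9% of tested genes were). By a dimmer probe set, Mrpl27, Mrpl41 and Mrpl51 of these 26 were not lower in each of the 4 lines.

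**Figure D2:**
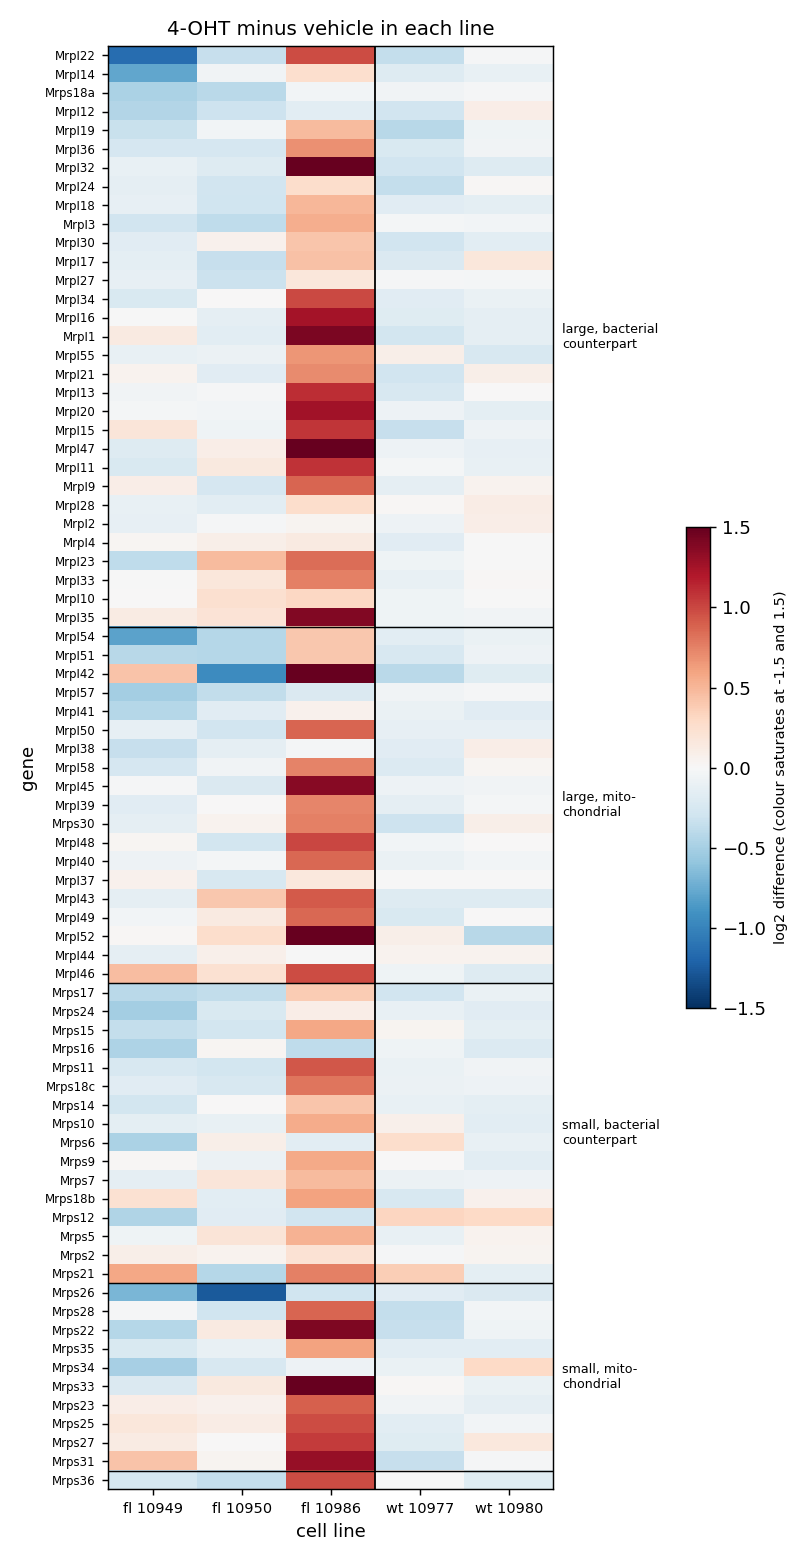
Log2 difference, 4-OHT minus vehicle, of each member (rows, grouped by subunit and by presence of a bacterial counterpart) in each line (columns), with red for higher and blue for lower in 4-OHT cells. The column of line 10986 is red for 67 of 77 members, while the other 4 columns are mostly pale blue.

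The 3 members below had the widest range of levels over the 10 arrays, and for all 3 the lowest level was that of the vehicle array of line 10986. Mrpl47, whose bacterial counterpart lies at the exit of the peptide tunnel, had log2 levels of 10.11, 9.06 and 9.99 in fl 4-OHT cells of lines 10949, 10950 and 10986, against 10.30, 8.97 and 7.68 in fl vehicle cells, and 9.42 and 9.50 in wt 4-OHT cells of lines 10977 and 10980, against 9.49 and 9.63 in wt vehicle cells. Its difference of 2.32 in line 10986 was the largest of any member, while a dimmer probe set of Mrpl47 gave 0.30 there. Mrpl22, whose bacterial counterpart lines the tunnel, had 8.15, 7.92 and 8.10 in fl 4-OHT cells, against 9.29, 8.27 and 7.12 in fl vehicle cells, and 7.79 and 8.33 in wt 4-OHT cells, against 8.14 and 8.34 in wt vehicle cells. Its difference was -1.14 in line 10949 and 0.98 in line 10986, so the fl lines disagreed in sign. Mrps22, a small subunit protein particular to mitochondria, had 9.99, 9.39 and 9.91 in fl 4-OHT cells, against 10.41, 9.26 and 8.52 in fl vehicle cells, and 9.55 and 9.88 in wt 4-OHT cells, against 9.90 and 9.94 in wt vehicle cells. In each of the 3 genes the fl vehicle levels spread more widely than those of the other groups and overlapped them.

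For the 4-OHT effect in fl lines, none of the 77 members passed the test (limma with the line as a block, Benjamini-Hochberg adjusted p under 0.05), while 24 of 15662 genes did (0.153%). At an unadjusted p under 0.05 there were 2 members above 0, Mrpl46 and Mrps31, and 5 below, Mrps26, Mrpl57, Mrps12, Mrps18a and Mrpl12. These were 2.60% and 6.49% of members, against 6.68% and 5.65% of all tested genes. The median fitted log2 difference over members was 0.15, with 52 of 77 above 0, against a median of 0.00 over all tested genes. Members higher in all 3 fl lines numbered 10 (13.0%, against 14.6% of tested genes) and members lower in all 3 numbered 7 (9.09%, against 14.5%). Both shares lay below the share of all tested genes. The Zfx probe set itself had a difference of 0.37 (SE 0.16, adjusted p = 0.407), and the labels do not say whether its probes lie in the deleted part, so it checks neither the deletion nor the labels.

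Mrps26, a small subunit protein particular to mitochondria, had the lowest fitted value of the members. Its log2 level was 7.43, 7.34 and 7.57 in fl 4-OHT cells of lines 10949, 10950 and 10986, against 8.12, 8.60 and 7.87 in fl vehicle cells, and 7.69 and 7.90 in wt 4-OHT cells, against 7.86 and 8.11 in wt vehicle cells. The fl 4-OHT levels lay below all fl vehicle levels and also below all wt levels. The difference was -0.69, -1.27 and -0.30 in the fl lines and -0.17 and -0.21 in the wt lines. The fitted value was -0.75 in fl lines (SE 0.18, n = 3 line pairs, limma adjusted p = 0.157), so it was not past the threshold.

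Mrpl57, a large subunit protein particular to mitochondria, had 9.91, 9.77 and 9.86 in fl 4-OHT cells, against 10.43, 10.14 and 10.07 in fl vehicle cells. In the wt lines it had 10.14 and 10.17 with 4-OHT, against 10.18 and 10.18 with vehicle. All 3 fl 4-OHT levels were below the 7 other levels. Its fitted difference in fl lines was -0.37 (SE 0.10, n = 3 line pairs, limma adjusted p = 0.203). Mrps18a, a large subunit protein of bacterial descent, had 9.71, 9.52 and 9.59 in fl 4-OHT cells, against 10.18, 9.93 and 9.63 in fl vehicle cells, and 9.65 and 9.96 in wt 4-OHT cells, against 9.70 and 9.98 in wt vehicle cells. Its fl groups overlapped, and the fitted difference was -0.31 (SE 0.11, adjusted p = 0.345). Mrps26, Mrpl57 and Mrps18a were the members lower with 4-OHT in all 5 lines (3.90%, against 2.36% of tested genes).

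Mrps12, the counterpart of the bacterial protein of the decoding centre, had opposite signs in fl and wt lines. Its log2 level was 7.14, 7.29 and 7.29 in fl 4-OHT cells, against 7.59, 7.46 and 7.58 in fl vehicle cells, and 7.22 and 7.34 in wt 4-OHT cells, against 6.90 and 7.05 in wt vehicle cells. Neither the fl groups nor the wt groups overlapped, and Mrps12 was the sole member with both wt 4-OHT levels above both wt vehicle levels (1.30%, against 14.3% of tested genes). The fitted difference was -0.30 in fl lines (SE 0.10, limma adjusted p = 0.282) and 0.31 in wt lines (SE 0.12, adjusted p = 0.9999). The difference of these effects was -0.61 (SE 0.16, adjusted p = 0.677), the smallest adjusted p of any member in that comparison, in which none of 15662 genes passed (0.00%).

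Mrpl12, the counterpart of the bacterial stalk protein that recruits translation factors, had 10.33, 10.49 and 10.37 in fl 4-OHT cells, against 10.77, 10.80 and 10.54 in fl vehicle cells, and 10.19 and 10.47 in wt 4-OHT cells, against 10.48 and 10.37 in wt vehicle cells. Its fl groups did not overlap, with a fitted difference of -0.30 (SE 0.12, limma adjusted p = 0.357), and the wt lines differed in sign. Mrps34, a small subunit protein particular to mitochondria, had 7.74, 7.72 and 7.78 in fl 4-OHT cells, against 8.24, 7.96 and 7.85 in fl vehicle cells, a fitted difference of -0.27 (SE 0.13, adjusted p = 0.473). Mrpl38 of the large subunit had 9.07, 9.07 and 8.96 in fl 4-OHT cells, against 9.42, 9.20 and 8.99 in fl vehicle cells, a fitted difference of -0.17 (SE 0.11, adjusted p = 0.641). Members whose 3 fl 4-OHT levels lay below all 3 fl vehicle levels were Mrpl12, Mrpl57, Mrps12, Mrps26 and Mrps34 (6.49%, against 7.27% of tested genes).

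**Figure D3:**
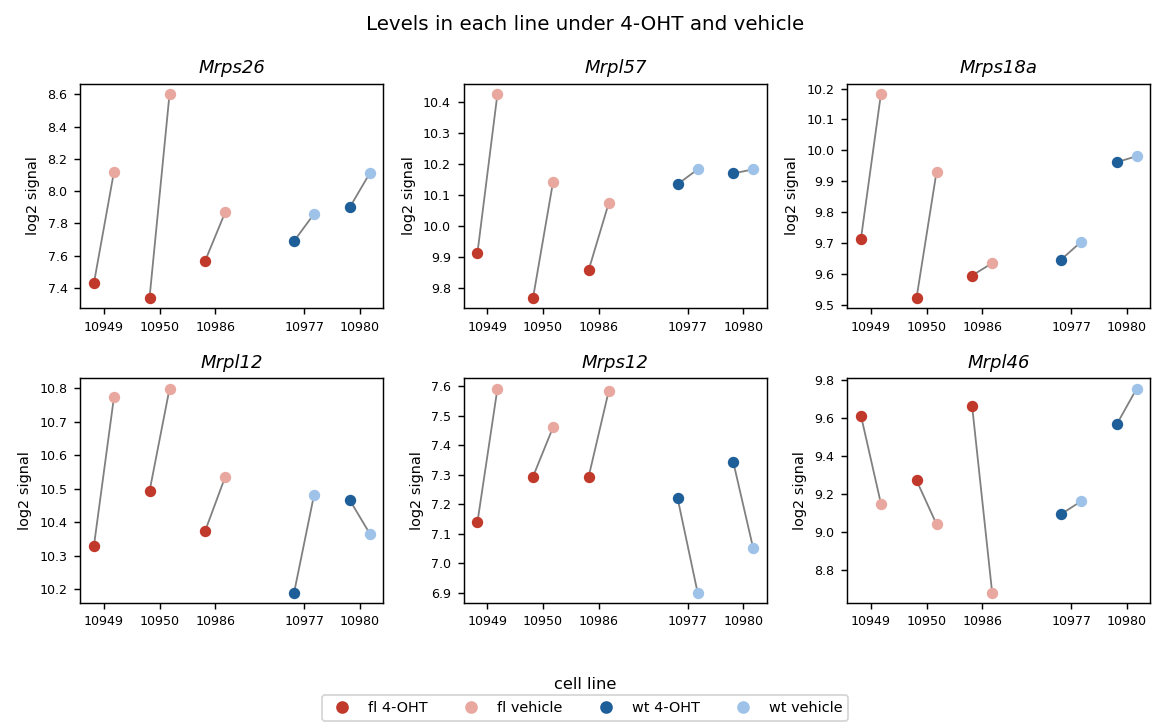
Log2 signal of 6 members in each line, with 4-OHT (dark) left of vehicle (light) and a line joining the arrays of a cell line, fl in red and wt in blue. Mrps26 lies at 7.34 to 7.57 in fl 4-OHT cells and at 7.87 to 8.60 in fl vehicle cells, while Mrpl46 lies at 9.27 to 9.66 and at 8.68 to 9.15.

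Among members higher with 4-OHT in all 3 fl lines, Mrpl46, a large subunit protein particular to mitochondria, was the one whose fl groups did not overlap (1.30%, against 4.55% of tested genes). Its log2 level was 9.61, 9.27 and 9.66 in fl 4-OHT cells, against 9.15, 9.04 and 8.68 in fl vehicle cells, and 9.09 and 9.56 in wt 4-OHT cells, against 9.16 and 9.75 in wt vehicle cells. The fitted difference in fl lines was 0.56 (SE 0.15, limma adjusted p = 0.201). The fl vehicle levels were below both wt vehicle levels, and the fl 4-OHT levels lay within the wt range.

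The other members of this kind had most of their difference in line 10986. Mrpl52, a large subunit protein particular to mitochondria, had differences of 0.02, 0.26 and 1.79 in lines 10949, 10950 and 10986, with a fitted value of 0.69 (SE 0.33, limma adjusted p = 0.470). Mrps31, of the head of the small subunit, had 0.42, 0.04 and 1.30, with a fitted value of 0.59 (SE 0.23, adjusted p = 0.359). Mrpl35, with a bacterial counterpart, had 0.12, 0.20 and 1.39, with a fitted value of 0.57 (SE 0.24, adjusted p = 0.406). Mrps25, Mrps27 and Mrps23, of the small subunit, had fitted values of 0.42, 0.39 and 0.35, and Mrpl10, a base of the stalk, had 0.18, with adjusted p between 0.408 and 0.551. In these 7 genes the difference in line 10986 was larger than in either other fl line, and in Mrpl10 it was 0.31, against 0.0090 and 0.23. Without line 10986 their fitted values were 0.14 for Mrpl52, 0.23 for Mrps31, 0.16 for Mrpl35, 0.14 for Mrps25, 0.061 for Mrps27, 0.082 for Mrps23 and 0.12 for Mrpl10, with limma adjusted p between 0.389 and 0.823. That of Mrpl46 was then 0.35 (SE 0.10, adjusted p = 0.124).

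Without line 10986 the fl result took the other sign. Over lines 10949 and 10950 the median fitted difference of members was -0.12, with 58 of 77 below 0, while over all tested genes it was 0.02. Of the members, 3 then passed the test as lower with 4-OHT, among 296 genes lower (1.89% of those tested) and 144 higher. They were Mrps26 at -0.98 (SE 0.14, limma adjusted p = 0.0155), Mrpl54 at -0.61 (SE 0.11, adjusted p = 0.0347) and Mrps18a at -0.44 (SE 0.09, adjusted p = 0.0478). Mrpl54, a large subunit protein particular to mitochondria, had 10.05, 9.71 and 10.01 in fl 4-OHT cells of lines 10949, 10950 and 10986, against 10.85, 10.14 and 9.61 in fl vehicle cells. With the vehicle array of line 10986 left out and its 4-OHT array kept, in a fit with the line as a random block, Mrps26 was at -0.95 (adjusted p = 0.0113), Mrpl57 at -0.44 (adjusted p = 0.0222) and Mrps18a at -0.44 (adjusted p = 0.0382), with 2.16% of tested genes lower. Mrps26 and Mrps18a passed in both of these fits, Mrpl54 in the first alone and Mrpl57 in the second alone. Both fits leave out an array that was singled out by its own values, so their adjusted p-values can be too small.

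**Figure D4:**
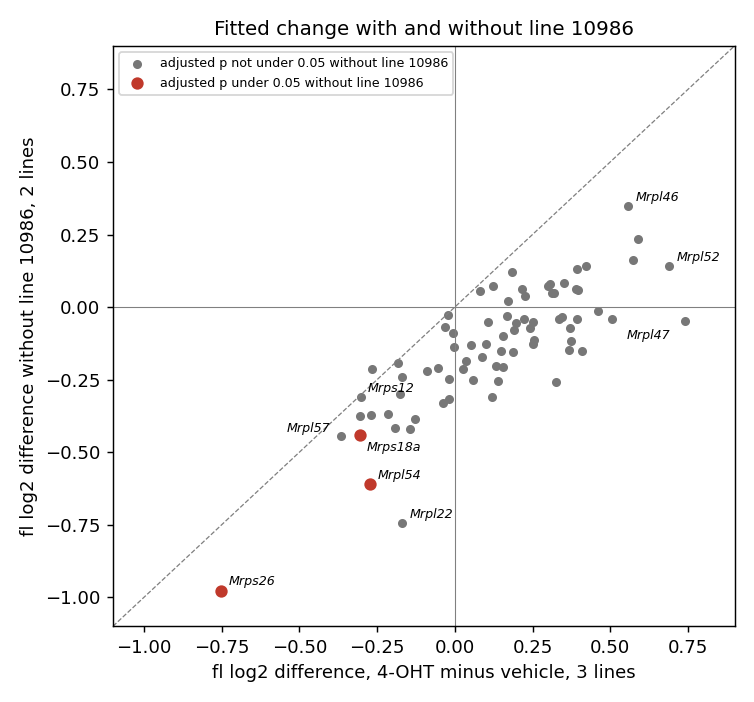
Fitted log2 difference in fl lines, 4-OHT minus vehicle, over 3 lines (x axis) and without line 10986 (y axis) for each member, with the dashed line marking equal values. Nearly all points lie below the dashed line, and Mrps26, Mrpl54 and Mrps18a (red) pass the test without that line.

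In wt lines, where 4-OHT activates Cre without a floxed Zfx allele, no member and no other gene passed the test (0.00%), and 23 of 15662 genes, 1 of them a member, had an unadjusted p under 0.05. The fitted difference was below 0 for 69 of 77 members, with a median of -0.09 and a range of -0.29 to 0.31, against a median of 0.00 over all genes. Members lower in both wt lines numbered 48 (62.3%, against 24.5% of tested genes), and 3 were higher in both, Mrpl28, Mrpl44 and Mrps12 (3.90%, against 24.3%). In 25 members both wt 4-OHT levels lay below both wt vehicle levels (32.5%, against 12.4% of tested genes). Mrpl42, a large subunit protein particular to mitochondria, had the lowest fitted value, -0.29 (SE 0.49, n = 2 line pairs). Mrpl19 followed at -0.24 (SE 0.20), Mrpl32 at -0.24 (SE 0.39) and Mrpl30 at -0.22 (SE 0.16). Mrpl28 had 0.06 (SE 0.14) and Mrpl44, which contains a ribonuclease-like fold, 0.05 (SE 0.12). All of these members had a limma adjusted p of 0.9999. Fl and wt lines share 1 estimate of spread in this fit, so these SEs also hold the disagreement between fl lines. The differences of Mrpl42 were -0.40 and -0.18 in wt lines 10977 and 10980, and 0.43, -0.94 and 1.49 in fl lines 10949, 10950 and 10986. Without line 10986 the wt effect of Mrpl42 had an SE of 0.26 and that of Mrpl32 0.092, with limma adjusted p of 0.9997.

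For the difference of the 4-OHT effects, fl minus wt, the median over members was 0.24 with all lines and -0.01 without line 10986. No member passed the test in either fit. With all lines the highest values were 0.86 for Mrpl52 (SE 0.51), 0.84 for Mrpl47 (SE 0.70), 0.77 for Mrps31 (SE 0.36) and 0.69 for Mrpl46 (SE 0.24). The lowest after Mrps12 were -0.56 for Mrps26 (SE 0.28), -0.37 for Mrps34 (SE 0.20) and -0.34 for Mrpl57 (SE 0.16). All adjusted p-values of these 7 members lay between 0.775 and 0.930. Without line 10986 the values were 0.31 for Mrpl52, 0.053 for Mrpl47, 0.41 for Mrps31 and 0.48 for Mrpl46, and -0.62 for Mrps12, -0.79 for Mrps26, -0.47 for Mrps34 and -0.41 for Mrpl57, with adjusted p between 0.209 and 0.982. Of the members, 7 were higher in all 3 fl lines and lower in both wt lines (9.09%, against 4.58% of tested genes), and Mrps12 alone was the reverse (1.30%, against 3.49%).

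Between genotypes under vehicle, 3 of 15662 genes passed the test (0.0192%) and none was a member. These comparisons share arrays with those above. The median over members, fl minus wt, was -0.21, with 60 of 77 below 0, against 0.03 over all genes, and it was 0.02 without line 10986. Mrps12 was the member with the smallest adjusted p, at 0.57 (SE 0.10, limma adjusted p = 0.185), and its 3 fl vehicle levels of 7.46 to 7.59 lay above both wt vehicle levels, 6.90 and 7.05. Mrps16 at 0.32 (SE 0.14), Mrpl12 at 0.28 (SE 0.13) and Mrpl27 at 0.25 (SE 0.17) were the next highest. Mrpl16 at -0.74 (SE 0.37), Mrpl32 at -0.63 (SE 0.44), Mrps31 at -0.62 (SE 0.36) and Mrps33 at -0.59 (SE 0.46) were the lowest, and each had its lowest level on the vehicle array of line 10986. Without that line these were -0.32, -0.16, -0.31 and -0.15 in the same order, while Mrps12 was at 0.55 (adjusted p = 0.541), Mrps16 at 0.26, Mrpl12 at 0.36 and Mrpl27 at 0.39. Members with fl vehicle levels all above those of wt vehicle cells were Mrpl12, Mrps12 and Mrps16 (3.90%, against 18.6% of tested genes), and those all below were Mrpl10 and Mrpl46 (2.60%, against 12.1%).

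Between genotypes under 4-OHT, 101 genes passed the test (0.645%) and none was a member. The median over members was 0.05, with 45 of 77 above 0, against 0.02 over all genes. Mrpl57 had the smallest adjusted p, at -0.31 (SE 0.12, limma adjusted p = 0.350), and Mrps26 the lowest value, -0.35 (SE 0.21, adjusted p = 0.698). Mrpl14 at -0.33 (SE 0.27) and Mrpl17 at -0.30 (SE 0.24) were also low, and Mrpl33 at 0.51 (SE 0.29), Mrpl52 at 0.50 (SE 0.43), Mrpl47 at 0.26 (SE 0.63) and Mrpl20 at 0.24 (SE 0.32) were high. Without line 10986 Mrpl57 was at -0.31, Mrps26 at -0.41, Mrpl14 at -0.32, Mrpl17 at -0.36, Mrpl33 at 0.56, Mrpl52 at 0.39, Mrpl47 at 0.12 and Mrpl20 at 0.13. Members with fl levels all below the wt levels under 4-OHT numbered 8 (10.4%, against 14.2% of tested genes), among them Mrps26, Mrpl57 and Mrps34. Those all above numbered 4, Mrpl4, Mrpl33, Mrpl41 and Mrpl52 (5.19%, against 12.6%).

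Genes that act with the mitochondrial ribosome were read from lists by symbol, and none of their genes passed the test over the 3 fl lines. Of the ribosome proteins with other symbols, 4 of 5 were measured and tested, with Chchd1 at -0.56 (SE 0.19, limma adjusted p = 0.295) and Dap3, its GTP-binding protein, at 0.47 (SE 0.17, adjusted p = 0.337). Of 15 mitochondrial translation factors and partners, 12 were above 0, with Slirp at 0.61 and Lrpprc, its partner in keeping mitochondrial messages stable, at 0.44. Of 24 ribosome assembly factors, 13 were above 0, with the GTPase gene Gtpbp10 at 0.66 and the RNA-binding protein gene Fastkd2 at 0.56. Of 19 mitochondrial aminoacyl-tRNA synthetases and amidotransferase subunits tested, 10 were above 0, with Vars2 at -0.48 and Qrsl1 at 0.32. Of 13 genes of mitochondrial transcription and its nuclear regulators tested, 7 were above 0, with Tfb2m at 0.60 and Myc at -0.48. The medians of the last 4 lists were 0.14, 0.03, 0.03 and 0.06.

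Without line 10986 most of these genes lay below 0. Genes above 0 then numbered 4 of 15 translation factors, 8 of 24 assembly factors, 4 of 19 synthetases and amidotransferase subunits and 4 of 13 of transcription and its regulators, with medians of -0.010, -0.071, -0.099 and -0.097. In that fit 3 listed genes passed the test as lower with 4-OHT, against 1.89% of tested genes lower. They were Chchd1 at -0.80 (SE 0.15, limma adjusted p = 0.0346), Tfam, which packages mitochondrial DNA and starts its transcription, at -0.57 (SE 0.11, adjusted p = 0.0443), and Nrf1, an activator of nuclear genes for mitochondria, at -0.51 (SE 0.11, adjusted p = 0.0478). Over all 3 fl lines Tfam was at -0.06 (SE 0.30) and Nrf1 at -0.46 (SE 0.11, adjusted p = 0.153). Among the genes named above, Dap3 was then at 0.20, Slirp at 0.076, Lrpprc at 0.31, Gtpbp10 at 0.099, Fastkd2 at 0.16, Vars2 at -0.36, Qrsl1 at 0.11, Tfb2m at 0.031 and Myc at -0.29, and none of these passed.

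By line, these lists followed the members to different degrees. In line 10986 the median difference was 0.58 for translation factors, 0.26 for assembly factors, 0.10 for synthetases and 0.11 for transcription and its regulators. It was 0.54 for 69 genes of the respiratory chain and ATP synthase, and 0.10 for 56 cytosolic ribosomal proteins, against 0.68 for the mitochondrial ribosomal proteins. In the other fl lines, 10949 and 10950, it was -0.014 and -0.079 for translation factors, -0.13 and -0.099 for assembly factors, -0.12 and -0.22 for synthetases, -0.09 and -0.17 for transcription and its regulators, and -0.14 and 0.03 for the respiratory chain and ATP synthase. In wt lines 10977 and 10980 these medians were -0.21 and -0.0023, -0.18 and -0.0039, -0.21 and 0.07, -0.02 and 0.03, and -0.04 and -0.07. Cytosolic ribosomal proteins had medians of -0.09 and -0.01 in the other fl lines and 0.01 and -0.01 in the wt lines.

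**Figure D5:**
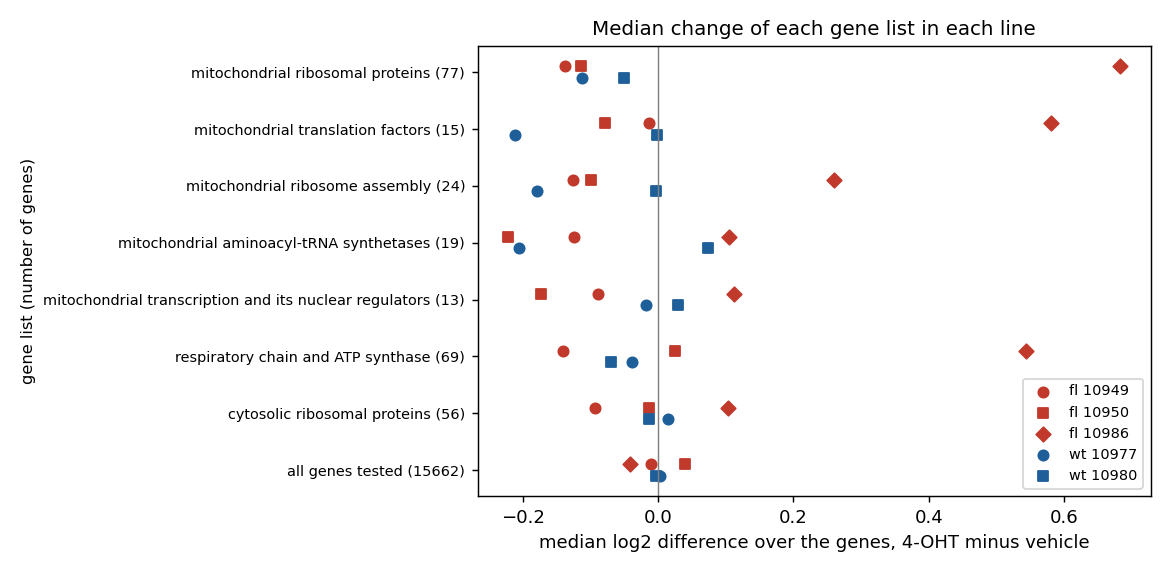
Median log2 difference, 4-OHT minus vehicle (x axis), of each gene list (rows, with its number of genes) in each line, fl lines in red and wt lines in blue. The point of line 10986 lies farthest right for the mitochondrial ribosomal proteins, at 0.68, and near the others for cytosolic ribosomal proteins, at 0.10.

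Split by the GABP and ETS, YY1 or NRF1 letters, members differed little from each other beside the gap between line 10986 and the other lines. Among those other lines, the gaps between the splits were not small beside the differences between lines. In line 10986 the median difference was 0.73 for the 24 members with the GABP and ETS letters and 0.71 for the 44 without, and in line 10949 it was -0.20 and -0.12. For the YY1 letters it was 0.86 for 13 members with and 0.71 for 55 without in line 10986, and -0.11 and -0.14 in line 10949. For the NRF1 letters it was 0.74 for 8 members with and 0.69 for 60 without in line 10986, and -0.06 and -0.14 in line 10949. In line 10950 the medians with and without were -0.17 and -0.07 for GABP and ETS, -0.19 and -0.09 for YY1, and -0.18 and -0.09 for NRF1. In wt line 10977 they were -0.14 and -0.10, -0.10 and -0.10, and -0.17 and -0.09 in the same order. In wt line 10980 they were -0.05 and -0.06, -0.05 and -0.08, and 0.0061 and -0.08. These splits were described and not tested.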

How the data were processed

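The study put RNA of sorted c-Kit+ cells on 10 one-colour arrays, so each line gave 1 array with 4-OHT and 1 with vehicle. The labels' protocols name medium with 20% serum, SCF at 20 ng/mL, and 10 ng/mL each of IL-3 and IL-6, and an Ambion WT kit that labelled 200 ng of RNA. The authors deposited intensity values that RMA had background-corrected, brought to one distribution and summarised per probe set, per the submitters' processing notes, which leave out the software and version. The intensities deposited run on a linear scale, judged from their range, and were turned into log2 values here. Arrays have no read depth, so their number and the signal over background limit the precision.

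Of 35556 probe sets, 21789 have a single symbol in the platform annotation, 1621 have several and 12146 are not listed. Entrez identifiers of 21698 were found in RefSeq (GRCm38.p6), with 0 symbols updated. Of the members, 8 have 2 usable probe sets. The level filter was percentile 25 of the mean over all probe sets. Tests of the 15662 genes left used limma (version 3.58.1, R version 4.3.3), two-sided, with Benjamini-Hochberg adjustment over all of them. The 4-OHT effects came from 1 model of all 10 arrays in which the line was a block (3 residual degrees of freedom, and 6.694 after adding the prior). A second model held 4 group means for the genotype comparisons and treated the line as random (correlation 0.165; statmod 1.5.0). Pairing by line comes from the series design, since cells of every line received both treatments. As a check, deviations from the group mean correlated between a line's 4-OHT and vehicle arrays at 0.78 (10949), 0.22 (10950), -0.06 (10986) and 0.43 (either wt line). Over the members alone these values were 0.58, -0.25, -0.38 and 0.35 in the same order, so lines 10950 and 10986 were below 0. With 2 wt lines the deviations mirror each other, so the wt lines share 1 value and give 1 check. The fitting steps were tested on simulated data with equal spread on all arrays, which does not cover an outlying array such as the vehicle array of line 10986.

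Alternatives changed the block, the level filter, the scaling, the variance model and the weighting of arrays, or left out a line or an array. The fit on fl arrays alone was chosen after seeing the data. Members, gene lists and motifs were chosen with earlier results of these data known, and the cytosolic ribosomal protein and respiratory chain lists were taken by symbol after the member values were seen. Named members were those past the threshold in any comparison, the members with the largest fitted values each way (up to 8 in fl lines with 1 direction in all 3, up to 4 elsewhere), the 3 with the highest and lowest levels and the widest range, and those whose probe sets disagree. Of each other list, the 2 genes with the largest difference were named. Mrps36, Mrpl54 and members singled out by a count were named after their values were seen.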

Additional observations from a re-analysis of the deposited data

Results flagged for a closer look

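For 8 members, every fl line moved one way with 4-OHT and both wt lines the other way. Mrps12 was lower in all fl lines and higher in both wt lines, with a difference of effects of -0.61 (SE 0.16). The other 7 were higher in all fl lines and lower in both wt lines. Of all tested genes 3.49% had the first pattern and 4.58% the second. Their difference of effects was 0.77 for Mrps31 (SE 0.36), 0.69 for Mrpl46 (SE 0.24), 0.63 for Mrpl35 (SE 0.38) and 0.53 for Mrps25 (SE 0.28). It was 0.45 for Mrps23 (SE 0.27), 0.22 for Mrpl10 (SE 0.16) and 0.17 for Mrpl4 (SE 0.15). The difference itself was tested with limma over all genes, and none of the 8 passed, with adjusted p between 0.677 and 0.937. Without line 10986 the values were -0.62 for Mrps12, 0.41 for Mrps31, 0.48 for Mrpl46, 0.22 for Mrpl35, 0.24 for Mrps25, 0.18 for Mrps23, 0.16 for Mrpl10 and 0.14 for Mrpl4, with adjusted p between 0.209 and 0.884.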

How the results depend on the processing

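No member passed in any comparison under the alternatives of block, filter, probe set choice, scaling and prior, nor with any line other than 10986 left out. The wt effect kept 0 genes called and a median over members below 0 under all alternatives run. The line as a block changed no member's call: without the replicate block, the fl effect had 28 genes called and a member median of 0.15. For the fl effect over all genes, 24 with all lines, calls numbered 83 with the line as a random block, 8 with no level filter, 14 with the filter at the 50th percentile, 3 with arrays centred on their median, 61 after quantile normalization and 0 on fl arrays alone. For the difference of effects there was 1 gene called without the replicate block and 1 with a random block. For fl against wt under vehicle there were 0 genes with no level filter, with the stricter filter and after quantile normalization. Under 4-OHT there were 66 with centred arrays.

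Leaving out 1 line at a time moved the fl count between 0 and 440 genes (440 without line 10986, 0 without any other), the members called between 0 and 3, and the member median between -0.12 and 0.27. For the difference of effects the count lay between 0 and 20 and the median between -0.014 and 0.38. For fl against wt under vehicle the count lay between 0 and 15 (15 without line 10977) and the median between -0.42 and 0.02. Under 4-OHT the count lay between 0 and 51, with 101 in all lines: 7 without line 10949, 10 without 10950, 51 without 10977, 0 without 10980 and 39 without 10986. The median there lay between -0.0495 and 0.17, and was -0.0468 without line 10949, -0.0495 without 10977 and -0.0007 without 10986. With the vehicle array of line 10986 alone left out and the line as a random block, 3 members and 468 genes were called for the fl effect, with a member median of -0.10. The difference of effects then had 21 genes and a median of -0.0067, fl against wt under vehicle 6 genes and a median of 0.028, and under 4-OHT 167 genes.

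Array weights, whose estimation stopped before convergence and gave 1 array a weight of 116, called far more genes. For the fl effect they gave 3907 of 15662 genes, 23 of 77 members (3 higher, 20 lower) and a member median of -0.11. For the difference of effects they gave 359 genes, 1 member (Mrps12) and a median of -0.0141. For fl against wt they gave 6237 genes and 37 members under vehicle, and 1106 genes and 1 member (Mrpl57) under 4-OHT. Members were called at a somewhat higher share than all genes for the fl effect and under vehicle. For the difference of effects and under 4-OHT their share was lower than that of all genes. These gaps in share were not tested, so the counts say little about the members in particular. The causes of the shifts between alternatives were not tested. With 3 and 2 lines, a member difference within the spread between lines could not be told from none.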

Other observations

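Several members share a start region with a gene on the opposite strand, within 500 bases in RefSeq (GRCm38.p6). Mrpl46 and Mrps11, both members, face each other in this way. With 4-OHT, Mrpl46 had log2 differences of 0.46, 0.23 and 0.98 in fl lines 10949, 10950 and 10986, while Mrps11 had -0.24, -0.27 and 0.93, so the pair differed in sign in lines 10949 and 10950. Mrps12 had -0.45, -0.17 and -0.29 in fl lines and 0.32 and 0.29 in wt lines. Its partner Sars2, the mitochondrial seryl-tRNA synthetase, had -0.12, -0.07 and -0.09 in fl lines and 0.05 and 0.07 in wt lines, the same sign in each of the 5 lines at a smaller size. Mrpl57 had -0.51, -0.37 and -0.22 in fl lines, while its partner Ska3, of the kinetochore, had 0.21, -0.40 and 0.83.

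In line 10986 the partners of some members were high with 4-OHT as the members were. Mrpl47 had 2.32 and Ndufb5, a respiratory chain subunit, 1.24. Mrpl32 had 1.53 and Psma2, a proteasome subunit, 1.20. Mrps27 had 1.05 and Ptcd2, a mitochondrial RNA-binding protein, 1.15. Others were not: Mrpl40 had 0.86 and the histone chaperone gene Hira -0.13, and Mrpl21 had 0.71 and Ighmbp2 -0.03. Probe sets of 1 gene could also differ. Mrpl27 had a mean fl difference of -0.09 by its brightest probe set and 0.03 by the other, the sole member in which that mean changed sign. In single lines the sign changed in other members too. In line 10950, for example, the probe sets of Mrpl51 gave -0.43 and 0.02 and those of Mrpl41 -0.17 and 0.0038. As mean fl differences, the probe sets of Mrpl47 gave 0.74 and 0.01. Both probe sets of Mrpl23 gave 0.31, and those of Mrps33 gave 0.51 and 0.41.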
